A study of Mus musculus with 8 samples.

Results

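The genes described here are 10 immediate early genes, *Arc*, *Egr1*, *Egr2*, *Egr3*, *Fos*, *Fosb*, *Junb*, *Btg2*, *Ier2* and *Nr4a1*, chosen by name after their behaviour in these data was known. Of the 10, 9 have a row among the 12148 genes of the table, and the expression of *Fosb* was not analysed here. The question put to them was how each differs between dental pulp with and without deletion of *Tgfbr2*. RNA came from the pulp of mandibular first molars of C57BL/6J mice at postnatal day 7 (P7), with the left and right molars combined, and was sequenced in 8 libraries. The controls were 4 libraries from Osterix-Cre mice, numbered 49 to 52 in their labels. The mutants were 4 libraries from Osterix-Cre:Tgfbr2f/f mice (*Tgfbr2cko*), numbered 53 to 56, which carry the same Cre and also *Tgfbr2* flanked by loxP sites. The Osterix promoter drives Cre in mesenchyme that gives rise to osteoblasts and odontoblasts, so RNA of cell types outside that lineage was sequenced together with that of the targeted cells. Titles of libraries 49 and 50 share a number, as do those of 53 and 56, and those of 51, 54 and 55 across the genotypes. The labels do not say what the number marks or that every library is a separate animal, so the spread between libraries may be partly technical.

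Immediate early genes are transcribed within minutes of a stimulus, such as a growth factor, depolarization or mechanical force, without the need for new protein. Signalling through MAP kinases acts on serum response factor (SRF) and its ternary complex partners, and calcium or cyclic AMP acts on CREB. SRF binds the CArG box and CREB binds the cyclic AMP response element, both short DNA sequences near these genes. Most of the products are transcription factors that carry the signal on to later genes, and their messages are short-lived, so their level in a tissue also follows how it was handled before lysis.

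Between 8682872 and 13539670 reads per library fell on the genes of the table, so 1 read is worth between 0.0739 and 0.115 CPM, the count scaled to a common library total. Values are log2 CPM with 0.5 added to each count, and counting intervals below cover counting error only. *Tgfbr2*, read over the whole gene, stood at 7.48 ± 0.22 in Osterix-Cre and 7.2 ± 0.28 in *Tgfbr2cko* pulp (SD, n = 4 each), which is a difference of -0.29 on the log2 scale with a standard error of 0.17 (limma, adjusted p 0.79), with overlapping values. The library labelled 56 stood apart. Its *Tgfbr2* value of 7.61 lay above the control mean, while libraries 53 to 55 had 7.02, 7.0 and 7.16, and without it the difference was -0.42 (limma, adjusted p 0.295), still with an overlap between libraries 55 and 49. The enamel genes *Amelx*, *Ambn* and *Enam* took 19.2% of its reads and between 0.334% and 2.87% of those of the other libraries. Leaving it out moved the median log2 difference of all genes from -0.0053 to 0.07, and values without it stand beside the results below that it moves.

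Promoter sequence was looked up for all 10 genes in RefSeq on GRCm38.p6, and 6 were matched, *Egr2*, *Btg2*, *Fos*, *Fosb*, *Junb* and *Nr4a1*. The 250 bases before a start of transcription are shown for *Egr2* and *Btg2*, whose mutant values lay below all control values. Those of *Fos* and *Nr4a1*, whose values overlapped, are shown too. None of the printed bases lies in an annotated exon. Capitals mark the CArG box and the core of the cyclic AMP response element, TGACG or its reverse complement CGTCA.
Egr2 promoter, chr10:67537619-67537868, plus strand: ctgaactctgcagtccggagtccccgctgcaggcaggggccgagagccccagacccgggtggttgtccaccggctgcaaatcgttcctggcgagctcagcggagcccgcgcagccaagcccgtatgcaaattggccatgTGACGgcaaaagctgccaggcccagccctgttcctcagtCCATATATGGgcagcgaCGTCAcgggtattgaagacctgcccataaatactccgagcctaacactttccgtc
Btg2 promoter, chr1:134079156-134079405, minus strand: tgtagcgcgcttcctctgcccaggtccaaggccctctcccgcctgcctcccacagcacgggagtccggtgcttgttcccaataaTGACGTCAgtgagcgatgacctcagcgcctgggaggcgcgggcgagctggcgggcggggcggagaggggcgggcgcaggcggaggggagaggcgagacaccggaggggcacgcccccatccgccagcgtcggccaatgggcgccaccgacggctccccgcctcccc
Fos promoter, chr12:85473640-85473889, plus strand: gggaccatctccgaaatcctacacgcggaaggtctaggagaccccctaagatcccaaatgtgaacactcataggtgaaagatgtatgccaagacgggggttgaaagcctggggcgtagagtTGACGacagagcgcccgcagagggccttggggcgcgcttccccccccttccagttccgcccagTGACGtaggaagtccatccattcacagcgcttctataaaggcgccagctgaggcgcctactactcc
Nr4a1 promoter, chr15:101266596-101266845, plus strand: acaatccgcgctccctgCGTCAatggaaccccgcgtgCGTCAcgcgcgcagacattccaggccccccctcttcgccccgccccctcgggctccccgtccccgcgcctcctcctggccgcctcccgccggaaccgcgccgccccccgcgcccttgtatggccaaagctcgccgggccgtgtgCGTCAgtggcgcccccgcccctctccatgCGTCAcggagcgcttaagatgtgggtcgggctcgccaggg

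The *Egr2* stretch holds a CArG box that ends 63 bases before the start, and 2 TGACG cores, on either side of it, that lie within the stretch from 51 to 111 bases before the start. RefSeq lists several starts for *Egr2*, and the window printed was picked because it holds the most of the marked motifs. Another window, before the start at position 67537566, also holds a CArG box but no TGACG. The window before the start at position 67535499 holds neither. Searched on both strands, the CArG box was found in the 250 bases of *Egr2* alone among the 6 genes, against 1.37% of the 9556 genes of the table that have such a window. TGACG was found in all 6, with 4 matches in *Nr4a1*, against 30.9% of those genes. The full palindrome TGACGTCA, which contains TGACG on each strand, was found in *Btg2* alone, against 3.11%. The EGR site GCGNGGGCG was found in *Btg2*, *Fosb* and *Nr4a1*, against 10.8%, and TATAAA in *Fos* alone, against 7.62%. A match is a description of the letters in the window. Bases farther from the start were not searched, so a gene without a match may still have the site outside its window. *Arc*, *Egr1*, *Egr3* and *Ier2* had no window to search.

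The size and direction of the difference varied among the 9 genes. *Arc* and *Egr2* were several-fold lower in *Tgfbr2cko* pulp, *Btg2* was modestly lower, and *Egr1* had a lower mean with overlapping values. *Egr3*, *Fos*, *Junb*, *Ier2* and *Nr4a1* differed by less than their spread. Calls come from limma, run over all genes with an intensity trend (limma-trend), and need a fold of 1.5 or more together with p below 0.05 before adjustment. By that rule 2 of the 9 were called, both lower, where 5.77% of all genes were called, 3.65% as lower and 2.12% as higher. Only *Arc* also passed after adjustment over all genes, where 0.947% of all genes passed, 0.700% as lower. In 3 of the 9, *Arc*, *Egr2* and *Btg2*, every mutant value lay below every control value, as in 3.14% of all genes, with a further 2.13% separated the other way and 5.27% in either direction. Lower mutant means were found in 7 of the 9, beside 51.2% of all genes, and without library 56 in 66.7% of them, beside 36.3%. Since the 9 were chosen with this contrast known, these counts and the differences below are descriptions and carry no test. The median log2 difference of the 9 was -0.46, beside -0.0053 over all genes. Without library 56 it was -0.17, beside 0.07 over all genes.

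**Figure D1:**
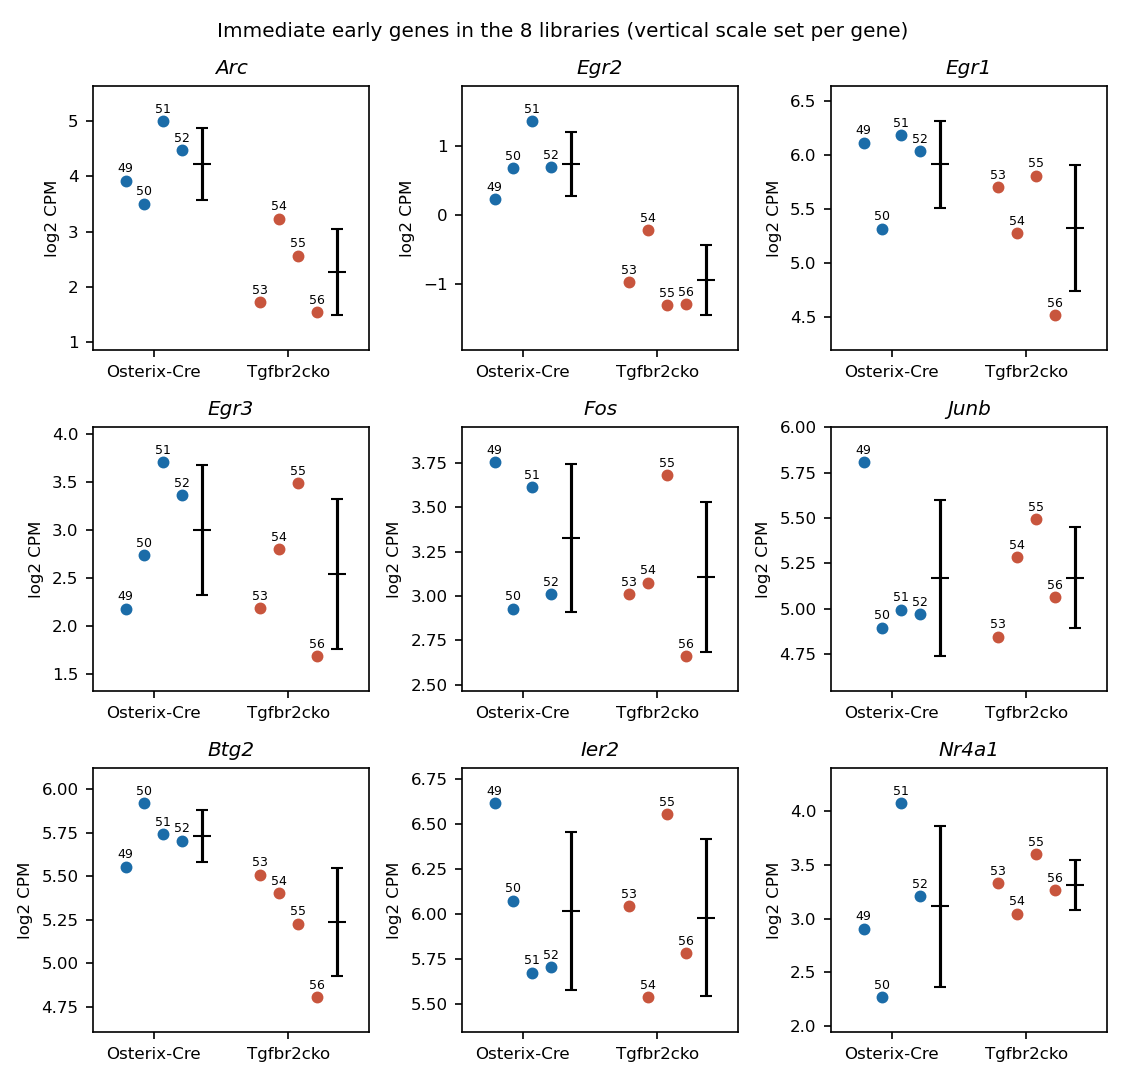
Each panel shows 1 immediate early gene, with log2 CPM on a vertical axis scaled to that gene. Points are single libraries with their number, and the black bar is the mean and SD of the 4 libraries of a genotype. The mutant points lie below all control points for *Arc*, *Egr2* and *Btg2*, and the genotypes overlap in the other 6 genes.

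*Arc* (ENSMUSG00000022602.14, chromosome 15 from 74669083 to 74672570, minus strand, GRCm38) encodes a protein best known from neurons, where it is made at active synapses and takes glutamate receptors back from the surface. The controls had 148, 109, 303 and 226 reads, or log2 CPM of 3.92, 3.5, 5.0 and 4.47, in libraries 49 to 52. The mutants had 29, 115, 51 and 39 reads, or 1.73, 3.23, 2.57 and 1.54, in libraries 53 to 56. No mutant reached the lowest control, library 50, and the nearest, library 54, lay 0.27 below it on the log2 scale. The means were 4.22 ± 0.65 and 2.27 ± 0.78 (SD, n = 4 each), a log2 difference of -1.95 (standard error 0.39), or 3.87-fold lower in *Tgfbr2cko*. Without library 56 the difference was -1.71, and leaving out any single library kept it between -2.27 and -1.70. With libraries that share a title number averaged, it was -2.12. Summed over libraries, 786 control reads and 234 mutant reads give a ratio of CPM of 3.72, with an exact 95% counting interval from 3.21 to 4.32. Because whole pulp was sequenced, fewer cells of a type and less RNA per cell cannot be told apart here, for *Arc* or any other gene.

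*Egr2* (ENSMUSG00000037868.15, chromosome 10 from 67535475 to 67542188, plus strand) encodes the zinc finger factor Krox20, which Schwann cells need to form myelin and which is also induced in many cells by growth factors. It is close to the lower limit of these data. The controls had 11, 15, 24 and 16 reads, with log2 CPM of 0.23, 0.68, 1.37 and 0.69, and the mutants 4, 10, 3 and 5 reads, with -0.98, -0.23, -1.31 and -1.30. The genotypes did not overlap, with 0.46 on the log2 scale between the lowest control, library 49, and the highest mutant, library 54. The means were 0.74 ± 0.47 and -0.95 ± 0.51 (SD, n = 4 each), and the log2 difference was -1.70 (standard error 0.45), or 3.24-fold lower. The 66 control reads and 22 mutant reads, taken over all libraries of a genotype, give a ratio of CPM of 3.32, and counting error alone spans 2.02 to 5.65. Over the 16 alternatives without a block for the title number that kept the gene its log2 difference lay between -1.94 and -1.45, and with 2 reads added to each count in place of 0.5 it was -1.46.

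*Egr1* (ENSMUSG00000038418.7, chromosome 18 from 34859823 to 34864984) encodes the most widely induced factor of the same zinc finger family. In log2 CPM, libraries 49 to 52 gave 6.11, 5.32, 6.19 and 6.04 while libraries 53 to 56 gave 5.7, 5.28, 5.81 and 4.51, with 309 to 692 reads per library. All 4 mutants lay below the control mean, but control library 50 was low and lay inside the mutant range. The means were 5.91 ± 0.40 and 5.33 ± 0.59 (SD, n = 4 each), a log2 difference of -0.59 (standard error 0.27), or 1.5-fold lower, and the gene was not called. Without library 56 the difference was -0.32, and with single libraries left out it lay between -0.79 and -0.32. *Egr1* was called in 6 of 17 unblocked alternatives, among them those without control library 50, mutant library 53 or mutant library 55. *Egr3* (ENSMUSG00000033730.3, chromosome 14 from 70077203 to 70082614), a relative that EGR1 itself can induce, had control values of 2.18, 2.74, 3.71 and 3.37 against mutant values of 2.19, 2.8, 3.49 and 1.68. The ranges nearly coincide apart from library 56, and the log2 difference of -0.46 (standard error 0.41) became -0.17 without it. With single libraries left out the difference lay between -0.78 and -0.17.

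*Fos* (ENSMUSG00000021250.13, chromosome 12 from 85473890 to 85477273) and *Junb* (ENSMUSG00000052837.6, chromosome 8 from 84974484 to 84978718) encode partners in AP-1, the dimeric factor of FOS and JUN proteins. *Fos* had control values of 3.76, 2.93, 3.61 and 3.01 against mutant values of 3.01, 3.08, 3.68 and 2.66, a log2 difference of -0.22 (standard error 0.28) that became -0.07 without library 56 and lay between -0.41 and -0.07 with single libraries left out. *Junb* had control values of 5.81, 4.9, 5.0 and 4.97 against mutant values of 4.85, 5.28, 5.49 and 5.06. Its means were 5.17 ± 0.43 and 5.17 ± 0.28 (SD, n = 4 each), and the sign of its difference changed between the unblocked alternatives, from -0.10 to 0.22. In both genes library 49 was the highest control and library 55 the highest mutant, and the genotypes overlapped. The gene *Prdx2*, transcribed the other way, shares 7.52% of the exon length of *Junb*, and the strand setting of the counting is not given in the sources used here.

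*Btg2* (ENSMUSG00000020423.6, chromosome 1 from 134075170 to 134079120) encodes an antiproliferative protein that brings messages to the CCR4-NOT deadenylase. The controls had 5.56, 5.92, 5.74 and 5.70 and the mutants 5.51, 5.41, 5.23 and 4.81, with 325 to 585 reads per library. No value overlapped, but only 0.047 separated control library 49 from mutant library 53. The means were 5.73 ± 0.15 and 5.24 ± 0.31 (SD, n = 4 each), a log2 difference of -0.49 (standard error 0.18), or 1.41-fold lower, which is under the 1.5-fold used for a call. Without library 56 it was -0.35, and with single libraries left out it lay between -0.59 and -0.35. The gene was called in 1 of 17 unblocked alternatives, the one without mutant library 53.

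*Ier2* (ENSMUSG00000053560.4, chromosome 8 from 84661331 to 84662852) encodes a small nuclear protein, and *Nr4a1* (ENSMUSG00000023034.6, chromosome 15 from 101254269 to 101274795) the orphan nuclear receptor NUR77. *Ier2* had control values of 6.62, 6.07, 5.67 and 5.7 against mutant values of 6.04, 5.54, 6.56 and 5.78, with a log2 difference of -0.04 (standard error 0.24). *Nr4a1* had control values of 2.91, 2.27, 4.08 and 3.21 against mutant values of 3.33, 3.05, 3.6 and 3.27, with a log2 difference of 0.20 (standard error 0.33). All mutant values of *Nr4a1* lay between the lowest and the highest control, and its control SD of 0.75 was larger than its mutant SD of 0.23. The difference of *Ier2* changed sign with the library left out, from -0.23 to 0.16. That of *Nr4a1* changed in 1 of 17 unblocked alternatives, since its difference was -0.08 without control library 50, against 0.52 without control library 51.

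**Figure D2:**
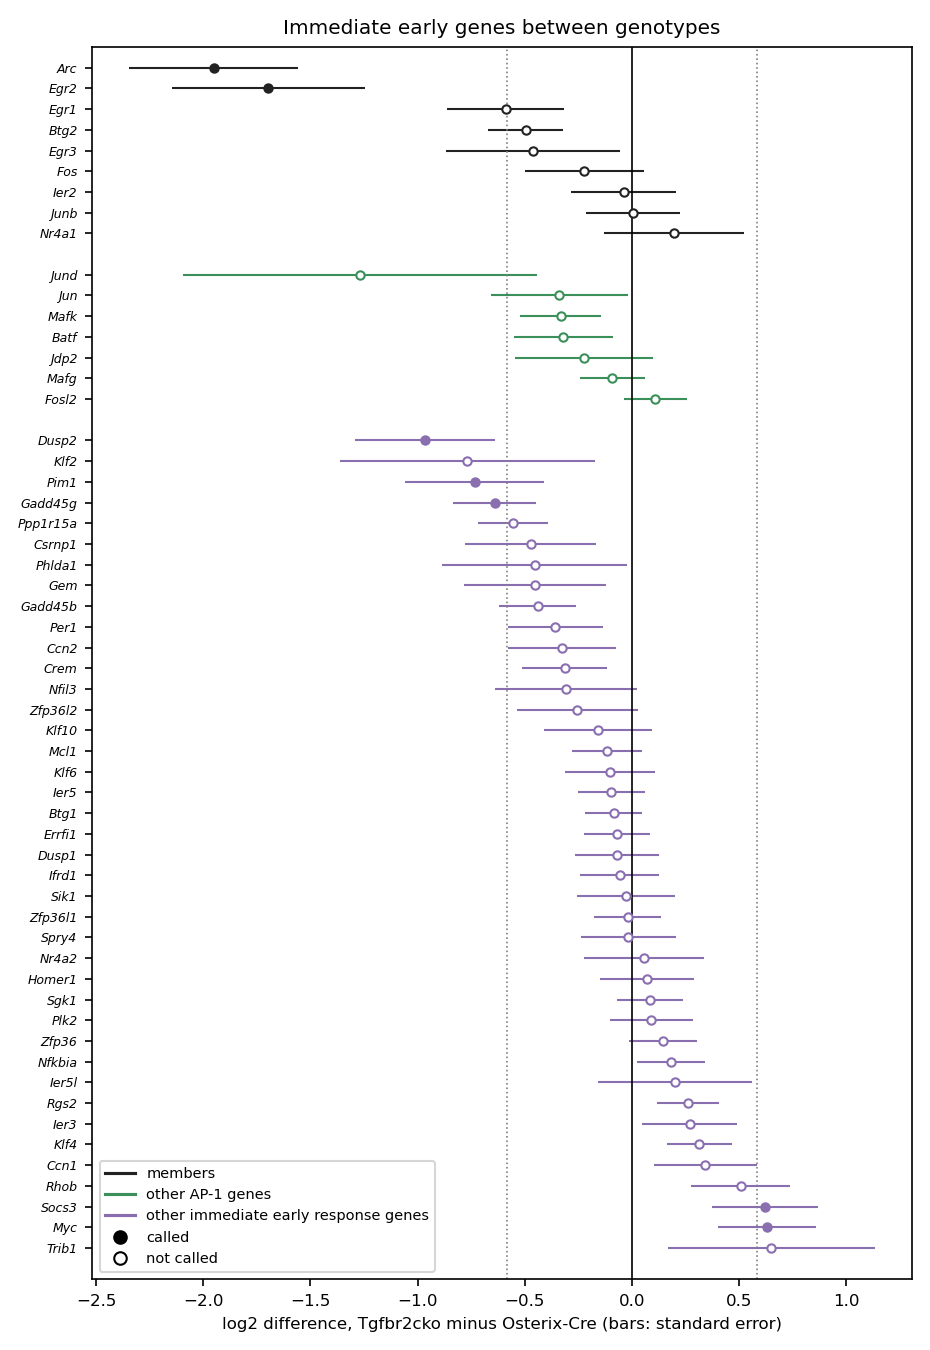
Horizontal position is the log2 difference, *Tgfbr2cko* minus Osterix-Cre, with its standard error, for the 9 genes (black), 7 other AP-1 genes (green) and 40 other immediate early response genes (purple). Filled points were called and dotted lines mark 1.5-fold; *Arc* at -1.95 and *Egr2* at -1.70 lie to the left of the other genes, which run from -1.27 to 0.65.

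Within a genotype the genes did not all follow each other from library to library. Among the controls, library 51 was the highest for *Arc*, *Egr1*, *Egr2*, *Egr3* and *Nr4a1*, while library 49 was the highest for *Fos*, *Junb* and *Ier2*. Library 49 was also the lowest control for *Egr2* and *Egr3*. Among the mutants, library 55 was the highest for *Egr1*, *Egr3*, *Fos*, *Junb*, *Ier2* and *Nr4a1*, and library 54 for *Arc* and *Egr2*. Library 56 lay below the mutant mean for all 9 genes and was the lowest mutant for 5. The within-genotype SD was 0.73 for *Egr3* and 0.72 for *Arc*, and only 3.40% and 3.57% of all genes had a larger one. For *Egr1* and *Egr2* that share was 12.5% and 13.6%, and for *Btg2*, the steadiest, 62.4%.

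**Figure D3:**
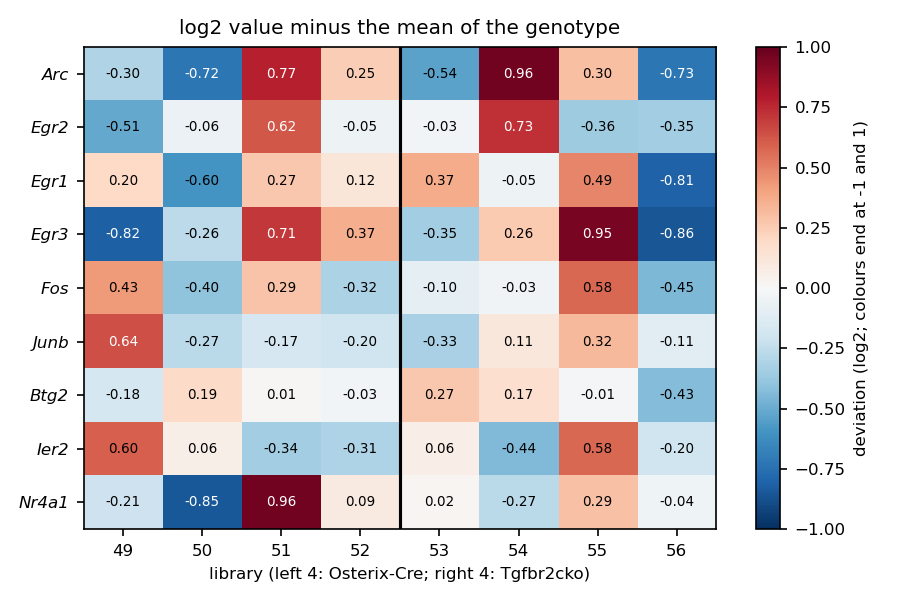
Each cell is the log2 value of a gene (row) in a library (column) minus the mean of the 4 libraries of its genotype. Library 51 is the highest control for 5 genes, library 49 for *Fos*, *Junb* and *Ier2*, and every gene is below the mutant mean in library 56. That library also has the lowest median over all genes.

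*Arc* and *Egr2* deviated alike to a degree, with a Pearson r of 0.72 between their deviations from the genotype means over the 8 libraries. *Egr3* stood at 0.77 with *Arc*, while *Ier2* stood at -0.38 with *Arc* and -0.76 with *Egr2*. Among all other genes the deviations most like those of *Arc* were of *Pip5k1a* (r of 0.995), *Nup88* (0.989), *Rrp7a* (0.989), *Prdm2* (0.982) and *Foxk2* (0.973), and for *Egr2* of *H13* (0.969), *Arrdc1* (0.965), *Bag4* (0.965), *2900076A07Rik* (0.958) and *Pdhx* (0.953). These are the highest values in the table, over 8 libraries, and are given as likeness, with no test. None of the 10 was lower in the mutants by more than 0.19 on the log2 scale.

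Levels can be set against each other per length of exon. In the controls *Ier2* was highest, at 44.1 ± 14.4 CPM per kilobase of exon (SD, n = 4), followed by *Btg2* at 19.4 ± 2.04, *Junb* at 16.2 ± 5.45, *Egr1* at 13.8 ± 3.34, *Arc* at 6.57 ± 2.96, *Fos* at 4.38 ± 1.26, *Nr4a1* at 2.72 ± 1.47, *Egr3* at 1.95 ± 0.86 and *Egr2* at 0.50 ± 0.17. The ranges of neighbours in this order overlapped except between *Ier2* and *Btg2* and between *Egr3* and *Egr2*. *Egr2* was at the bottom of the table in the controls, with 98.6% of all genes above it per length, while *Arc* lay in the middle, with 49.9% above it. In the mutants *Arc* moved from place 5 to place 7 of the 9, at 1.75 ± 0.98, below *Fos* at 3.77 ± 1.18 and *Nr4a1* at 2.85 ± 0.46. *Egr2* stayed last, at 0.15 ± 0.064.

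**Figure D4:**
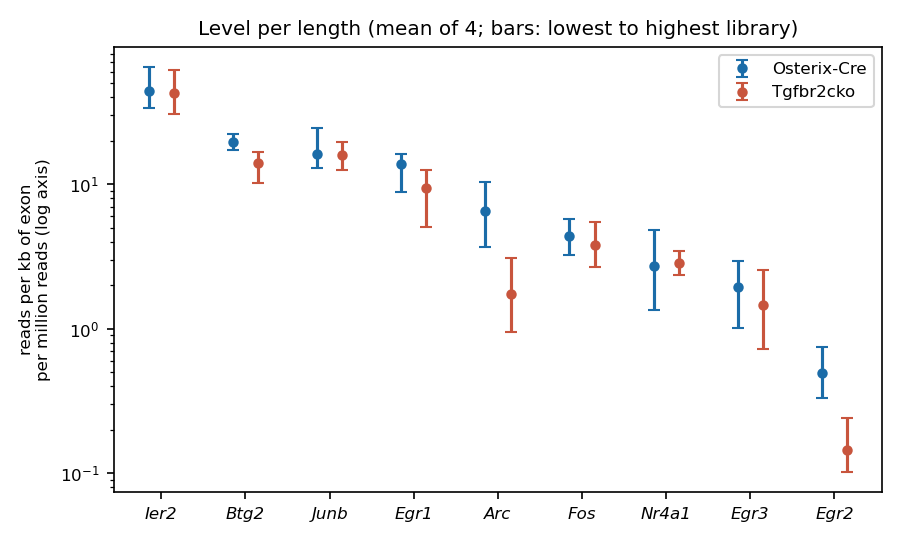
Points are the mean CPM per kilobase of exon of 4 libraries, on a log axis, with bars from the lowest to the highest library, in the order of the control means. *Arc* shows a mutant bar wholly below its control bar, from 0.942 to 3.06 against 3.69 to 10.4, as do *Egr2* and *Btg2*.

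Most of the genes are compact. In GENCODE M21, 6 of the 9 have at most 2 exons in their principal transcript, against 6.46% of 11676 coding genes of the table, and their median span is 4235 bases, against 24943.5. *Arc* has 3 exons, *Fos* 4 and *Nr4a1*, the longest, 8 over 20527 bases. The pentamer ATTTA, the core of AU-rich elements that mark short-lived messages, occurs in the 3' untranslated region of 7 of the 9 and of 67.7% of the coding genes. It was absent from *Arc* and *Ier2*, and reached 7 copies in *Egr3*.

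The rest of the immediate early programme was read from lists of genes that are not among the 10. Of 48 further immediate early response genes, 40 have a row in the table, 5 of them were called (12.5%, against 5.77% of all genes in either direction), 3 lower and 2 higher. *Dusp2*, a phosphatase that switches off MAP kinases, was lower with no overlap, from 2.68 ± 0.43 to 1.71 ± 0.53, a log2 difference of -0.96 (standard error 0.33, limma-trend p of 0.0113, adjusted p of 0.282). *Pim1*, a serine/threonine kinase, had a log2 difference of -0.73 (adjusted p of 0.553 from limma-trend), and *Gadd45g*, a stress sensor of the cell cycle, one of -0.64 (adjusted p of 0.191). The call of *Pim1* was kept in only 2 of the 8 fits that leave out 1 library, those without control library 52 or mutant library 53, and was lost without library 56. *Dusp2* was called in all 8, *Gadd45g* in 7, *Myc* in 6 and *Socs3* in 3. *Myc*, the growth factor-induced transcription factor, had a log2 difference of 0.63 (adjusted p of 0.338) and *Socs3*, an inhibitor of cytokine signalling, of 0.62 (adjusted p of 0.438). None of the 5 passed after adjustment over all genes by limma-trend. An unadjusted p under 0.05 was found for 8 of the 40, a larger share than the 8.38% of all genes. Of the 40, 25 (62.5%) had lower means, beside 51.2% of all genes, and their median log2 difference was -0.07. Without library 56 the median turned to 0.01, 20 had lower means, beside 36.3% of all genes, and *Ccn2* and *Phlda1* were called in addition to *Dusp2*, *Myc*, *Gadd45g* and *Socs3*. *Dusp2* had 19 to 95 reads per library. Without control library 50 the list had 3 calls, without control library 51 it had 3, and without control library 52 it had 3. Of all 12148 genes, those fits called 625, 701 and 656. Without library 56 the list had 6 calls, where 5.3% of all genes were called.

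For the next lists the shares over all genes are 5.77% called and 8.38% at an unadjusted p under 0.05. Other AP-1 genes were called in 0 of 7 by limma-trend, with 0 at an unadjusted p under 0.05, and 6 of the 7 had lower means in the mutants, where 51.2% of all genes did. Their median log2 difference was -0.32, and -0.12 without library 56. *Jun* had means of 5.79 ± 0.61 and 5.45 ± 0.61 for Osterix-Cre and *Tgfbr2cko* (SD, n = 4 each), and *Mafg*, a small MAF partner, 5.82 ± 0.21 and 5.73 ± 0.14. *Jund*, chosen after its values were seen, had only 0 to 14 reads per library and was called when mutant library 53 was left out. Of 31 kinases and factors upstream, from MAP kinases to SRF and CREB, 0 were called and 1 had an unadjusted p under 0.05. *Map2k2*, a kinase of the MAP kinase cascade, had means of 7.63 ± 0.12 and 7.64 ± 0.14. In this list *Rps6ka2*, chosen after its values were seen, was called without control library 49 or without mutant library 53. EGR corepressors and partners were called in 0 of 4, with 0 at an unadjusted p under 0.05. *Nab2*, which EGR proteins induce and which then represses them, was 5.76 ± 0.09 and 5.68 ± 0.41, and the cofactor gene *Hcfc1* 6.39 ± 0.19 and 6.29 ± 0.12.

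Heat shock genes respond to the handling of tissue, as many immediate early genes do. Of 16 such genes, 1 was called (6.25%, against 5.77% of all genes in either direction). It was higher in the mutants, as were 2.12% of all genes by the same rule. Of the 16, 9 had higher and 7 lower means, and their median log2 difference was 0.02. *Hspa1b*, the inducible HSP70, had means of 3.49 ± 0.34 and 4.08 ± 0.39, a log2 difference of 0.59 with an adjusted p of 0.478 by limma-trend, and it was not called without mutant library 56 or without control library 52. *Hspa8*, its constitutive relative, was higher by 0.54 on the log2 scale, from a control mean of 9.46 ± 0.32, with no overlap (adjusted p of 0.287 by limma-trend), and was called only without control library 49 or control library 51. *Hsp90ab1* was 10.37 ± 0.08 and 10.55 ± 0.20. The part of handling in *Arc* and *Egr2* was not tested.

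Markers of the cells that could hold these transcripts were read beside them. Of 12 Schwann cell markers, 6 have a row, *Sox10* and *Mag* not among them, and their summed level was 196 to 292 CPM for Osterix-Cre and 203 to 275 CPM for *Tgfbr2cko*. Of the 6, 3 had lower and 3 higher means. *Prx*, the periaxin gene, was called lower (log2 difference -0.64, adjusted p of 0.517 by limma-trend), a call kept in 4 of the 8 fits that leave out 1 library, and lost among others without library 56, where the difference was -0.41. *Mbp*, the gene of myelin basic protein, stood at 3.47 ± 0.34 and 4.04 ± 0.087, a log2 difference of 0.57 (unadjusted p of 0.0158, adjusted p of 0.337 by limma-trend) just under 1.5-fold. Both were chosen after their values were seen. Of 12 neuron or axon markers, only 3 have a row, *Snap25* and *Rbfox3* not among them, and 0 were called. They summed to 53 to 83.2 CPM without and 47.2 to 155 CPM with the deletion, the highest value in library 56. Their means were lower in 1 of 3, and in 3 of 3 without that library. Over all genes 51.2% had lower means and 3.65% were called lower, the shares beside which the following counts over 8 libraries stand. The matching shares for counts made without library 56 are 36.3% and 2.81%, with 2.49% called higher. Among blood vessel markers, all 8 endothelial markers had lower means and 2 were called lower, with sums of 357 to 463 CPM against 288 to 370 CPM. Of 5 pericyte or smooth muscle markers with a row, *Myh11* not among them, 4 had lower means and 2 were called lower, with sums of 405 to 539 CPM against 293 to 380 CPM, which do not overlap. These endothelial and pericyte counts were the same without library 56, where fewer genes overall had lower means. The marker genes that passed after adjustment by limma-trend, chosen after their values were seen, were *Cldn5* of the endothelial list (log2 difference -1.28, adjusted p of 0.00853), *Rgs5* of the pericyte list (-0.83, adjusted p of 0.0212) and *Klk4*, an enamel protease of the enamel organ list (-2.71, adjusted p of 0.000136). Macrophage markers had lower means in 9 of 10 and 3 were called lower, with sums of 1062 to 1580 CPM against 654 to 1436 CPM. The lowest of these was library 56, and without it the mutant sums began at 1015 CPM, 8 of 10 had lower means, 1 was called lower and the median log2 difference went from -0.42 to -0.23. Blood cell markers summed to 671 to 1521 CPM and 576 to 2554 CPM, or at most 706 CPM without library 56, with 4 of 7 lower in mean and 2 called lower, or 7 and 3 without that library, and *Cd3e* and *Cd79a* without a row. Odontoblast markers summed to 47895 to 102057 CPM and 29538 to 63107 CPM, with 3 of 8 called lower and 1 higher, or 2 and 1 without library 56. Pulp mesenchyme markers summed to 8135 to 10300.0 CPM and 7309 to 10338 CPM, with 0 of 8 called. Enamel organ markers summed to 4193 to 23641 CPM for Osterix-Cre, to 4462 to 30346 CPM for libraries 53 to 55 and to 195952 CPM for library 56, with 1 of 11 called lower and 1 higher, or 2 and 0 without library 56. The part of these cell types in the lower *Arc* and *Egr2* was not tested.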

How the data were processed

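RNA of dental pulp at P7 was sequenced in 8 libraries, 4 of each genotype. Per the labels and the study's methods, the authors preamplified small amounts of RNA, trimmed reads with fastp 0.21.0, aligned them with HISAT2 2.1.0, counted them per gene with featureCounts (Subread 2.0.1) against GENCODE M14 on GRCm38.p5, kept genes that the CLEAR workflow finds reliably quantifiable, and applied voom. The deposited values are therefore log2 CPM with 0.5 added to each count. Solved for reads, all 97184 values were whole within 0.001. Identifiers were matched without version to GENCODE M21 symbols (12144 of 12148). The 2 genotypes were then tested on these log2 values in R 4.3.3 with limma 3.58.1 and an intensity trend, two-sided, with Benjamini-Hochberg adjustment over all genes, after a test on simulated data. Likeness is Pearson's r of deviations from the genotype mean. The members, gene lists and tests were chosen with earlier results of these data known. Named genes were the 10 members, *Tgfbr2*, the enamel genes, the called genes of each list (the 5 largest) or, with under 2 called, the 2 highest, and the 5 most like *Arc* and *Egr2*. A gene that this rule names in the upstream list is not reported here. Sequences are RefSeq's. Alternatives were no trend, library weights, voom weights, quantile or median scaling, a mean log2 of at least 3, 2 reads added, libraries with the same title number averaged, an enamel covariate, 2-fold, adjusted p, each library left out and, added after seeing the data, the title number as a block. Figures used matplotlib 3.10.9.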

Additional observations from a re-analysis of the deposited data

Results flagged for a closer look

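Of 22 groups of 4 libraries examined, 4 had a library far from the other 3 by the ratio of the gap to the nearest library to the whole range, above Dixon's 95% critical value for 4 samples. Chance flags about 1 in 20 groups. *Egr1* was low in control library 50, with a ratio of 0.83. *Junb* was high in control library 49, with a ratio of 0.891. The summed enamel organ markers were high in control library 49, with a ratio of 0.839, and in mutant library 56, with a ratio of 0.865.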

How the results depend on the processing

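The log2 differences of *Arc*, *Egr1*, *Egr2*, *Egr3*, *Fos* and *Btg2* were negative under every alternative run, and in the unblocked alternatives none of the 9 moved by more than its within-genotype SD. *Arc* was called in all 17 unblocked alternatives and *Egr2* in all 16 that kept it. These are alternative fits read by the 1.5-fold rule, and the 2-fold and adjusted p thresholds are not counted among them. At an adjusted p under 0.05 by limma-trend *Egr2* was not called. The count of members called, 2, was 1 with a mean log2 of at least 3, where *Egr2* and *Egr3* drop out, 1 at an adjusted p under 0.05, 3 with voom weights, median centring or libraries of the same title number averaged (*Egr1* added), and 2 to 4 with single libraries left out, the 4 being *Arc*, *Egr1*, *Egr2* and *Btg2* without mutant library 53. All genes called numbered 701, 256 at 2-fold, 115 at an adjusted p under 0.05, and 625 to 947 with single libraries left out. The enamel covariate lowered the share of calls that were lower from 63.2% to 55.8%, and leaving out library 56 to 53%. The 5 calls of the immediate early response list were 3 with library weights, 2 with a mean log2 of at least 3, 0 at 2-fold, 0 at an adjusted p under 0.05 and 3 to 6 with single libraries left out. The 1 heat shock call was 0 with library weights, quantile scaling, 2 reads added, the enamel covariate, 2-fold or an adjusted p under 0.05, and 0 to 2 with single libraries left out. The AP-1 and upstream lists, at 0, gave 0 to 1 with single libraries left out. The cause of these shifts was not tested. Among the 9 members *Egr2* has the fewest reads, 3 to 24 per library. edgeR and DESeq2 on the recovered reads were not run. A fit with the title number as a block, chosen after seeing the data, has 3 residual degrees of freedom and takes its differences from libraries 51, 54 and 55 alone, the only ones that share a number across genotypes. What the number marks is not given. This blocked fit called 313 genes, 2 members (*Arc* at -2.09 and *Egr2* at -2.13), 1 gene of the immediate early response list and 0 heat shock genes. In it *Junb* stood at 0.39, *Ier2* at 0.37 and *Nr4a1* at -0.75, with standard errors of 0.38, 0.41 and 0.45.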
